A study of Mus musculus with 16 samples.

Results

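Clec4n, Clec4d, Clec4e, C3ar1 and Cd163 are 5 myeloid receptor genes that lie within 1483 kb of each other on mouse chromosome 6, and they were measured in heart tissue of DBA/2J and C57Bl6/N mice with and without an infarct. They were picked as neighbours because their levels differ between the strains, and were thus chosen by the counts of both strain comparisons, from a table of 13842 genes, so their strain differences are given as a description and were not tested. All 5 were in the table. All 5 also passed the filter on low counts that left 13504 genes, and Clec4d and Clec4e passed it through the DBA/2J libraries, where they are high.

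Clec4n, Clec4d and Clec4e encode C-type lectin receptors of macrophages, monocytes, dendritic cells and neutrophils, known as Dectin-2, MCL and Mincle. They bind microbial sugars and glycolipids, and Mincle also binds molecules released by dying cells. They signal through the adaptor FcRγ (gene Fcer1g), the kinase Syk and the Card9, Bcl10 and Malt1 complex towards inflammatory cytokines. C3ar1 encodes the receptor for C3a, the anaphylatoxin cut from complement C3. Cd163 encodes the macrophage receptor that takes up haemoglobin bound to haptoglobin, and in the heart it marks resident macrophages.

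The 16 polyA RNA libraries came from 16 female mice aged 3 months, in 4 groups of 4. DBA ligated and C57 ligated mice had a permanent coronary artery ligation and were examined 2 weeks later, and DBA control and C57 control mice were untreated, so that effects of infarct and of surgery cannot be told apart. DBA stands for DBA/2J and C57 for C57Bl6/N. The headers name the C57 controls C57Bl-6NCR and the ligated C57 mice C57Bl-6N, and do not say what the difference stands for. Whatever it stands for cannot be told apart from ligation in this strain. The headers also use the word remote for the ligated samples, which stands for myocardium distant from an infarct. The tissue is the septum with the left ventricle by the sample labels, but the septum with the right ventricle by the design text. Totals were 15.1 to 22.01 M (mega) counts in DBA ligated, 4.92 to 17.0 M in DBA control, 13.7 to 20.9 M in C57 ligated and 8.22 to 14.2 M in C57 control libraries. Cardiomyocyte markers summed to at least 68529 CPM (counts per 1 M counts of the scaled library total) in every library, and the general macrophage markers to between 369 and 913 CPM.

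Positions are on mm10. C3ar1 lies at chr6:122847140-122856157 on the minus strand, Clec4n at chr6:123229843-123247024 and Clec4d at chr6:123262107-123275268 on the plus strand, Clec4e at chr6:123281789-123289871 on the minus strand and Cd163 at chr6:124304651-124330527 on the plus strand. The 3 lectin genes stand 15.1 kb and 6.52 kb apart. C3ar1 is 374 kb from Clec4n, and Cd163 is 1015 kb from Clec4e. The gap before Cd163 holds 30 annotated genes, of which 9 are protein-coding and all 9 are Vmn2r vomeronasal receptor genes, and 0 of the 30 were analysed here. None of the 5 genes overlaps another annotated gene. Of the 50-base words in their exons, 0.686% for Clec4n and 0.109% for Cd163 also occur in other genes, and 0% for Clec4d, Clec4e and C3ar1.

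The 250 bases before the annotated start are shown for 4 of the 5 genes, all but Clec4n, to set the promoters of the strongly and the weakly differing genes side by side. They come from RefSeq on GRCm38.p6 and read 5′ to 3′ along the gene. The letters are those of the C57BL/6 reference, and a DBA/2J sequence was not used here. Capitals mark GAGGAA, the core of the myeloid factor PU.1, TGANTCA of AP-1 and TTGCNNAA of C/EBP, on either strand.
Clec4d, chr6:123261857-123262106, plus strand: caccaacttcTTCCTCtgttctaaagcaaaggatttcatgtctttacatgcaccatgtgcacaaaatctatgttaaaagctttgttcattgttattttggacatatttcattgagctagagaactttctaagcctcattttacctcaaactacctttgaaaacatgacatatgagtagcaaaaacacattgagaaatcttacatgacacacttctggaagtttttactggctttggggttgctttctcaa
Clec4e, chr6:123289872-123290121, minus strand: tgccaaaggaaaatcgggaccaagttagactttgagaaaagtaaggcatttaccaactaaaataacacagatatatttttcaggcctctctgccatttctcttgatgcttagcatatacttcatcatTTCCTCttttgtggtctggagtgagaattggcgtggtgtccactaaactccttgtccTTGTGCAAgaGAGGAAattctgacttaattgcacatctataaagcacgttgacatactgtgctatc
C3ar1, chr6:122856158-122856407, minus strand: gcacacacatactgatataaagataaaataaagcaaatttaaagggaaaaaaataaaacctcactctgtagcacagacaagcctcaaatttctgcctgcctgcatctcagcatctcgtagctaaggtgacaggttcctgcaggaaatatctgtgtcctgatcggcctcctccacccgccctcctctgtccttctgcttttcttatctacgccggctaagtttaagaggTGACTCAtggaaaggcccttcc
Cd163, chr6:124304401-124304650, plus strand: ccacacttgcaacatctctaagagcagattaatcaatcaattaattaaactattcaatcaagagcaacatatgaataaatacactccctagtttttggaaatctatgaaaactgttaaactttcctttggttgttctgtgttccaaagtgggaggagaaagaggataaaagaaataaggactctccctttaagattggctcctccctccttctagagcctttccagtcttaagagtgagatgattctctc

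The Clec4e window held the PU.1 core at 56 to 51 and, on the other strand, at 123 to 118 bases before the start, with a C/EBP match at 66 to 59. Clec4d held 1 PU.1 core, reversed, at 240 to 235 bases before the start. C3ar1 held 1 AP-1 match at 22 to 16 bases before the start, and Cd163 held none of these letters. Among 32851 promoter windows of this length, 23.3% held the PU.1 core, 6.75% the AP-1 motif and 9.56% the C/EBP motif. The matches describe letters in a window and do not show binding.

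Clec4d, which encodes MCL, a partner that helps Mincle to the cell surface, had the largest fitted strain difference of the 5 genes, with ligation and in controls. It measured 3.58, 2.87, 3.15 and 1.46 CPM in the DBA ligated libraries S41, S40, 1 and S42, against 0.136, 0.520, 0.319 and 0.198 CPM in C57 ligated libraries 1 to 4. It measured 1.22, 2.61, 1.68 and 2.60 CPM in DBA controls 1 to 4, against 0.134, 0.226, 0.148 and 0.172 CPM in C57 controls 1 to 4. Every DBA library lay above every C57 library. The C57 values rest on 1 to 7 counts per library. Over the pooled counts, DBA ligated libraries had 224 and C57 ligated libraries 18, a depth-scaled ratio of 10.4 (95% exact interval 6.41 to 17.8, counting error only), and the controls had 86 and 7, a ratio of 11.9 (5.52 to 30.4). The fitted log2 fold changes, DBA over C57, were 3.29 ± 0.44 (SE, n = 4 against 4) with ligation and 3.50 ± 0.64 (SE, n = 4 against 4) in controls.

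Clec4e, which encodes Mincle, had the fewest counts of the 5 genes. Its counts were 28, 16, 21 and 4 in the DBA ligated libraries S41, S40, 1 and S42, against 3, 2, 1 and 3 in C57 ligated libraries. DBA controls 1 to 4 had 13, 21, 0 and 4 counts, against 1, 1, 1 and 0 in C57 controls. The 4 ligated libraries of each strain did not overlap, but DBA control 3, with 0 counts, lay as low as C57 control 4, and its floor of 3 counts stands at 0.420 CPM. Pooled, the ligated libraries had 69 counts in DBA and 9 in C57, a ratio of 6.39 (3.18 to 14.6), and the controls 38 and 3, a ratio of 12.2 (3.88 to 62.0). The log2 fold changes were 2.59 ± 0.76 with ligation and 3.38 ± 1.21 in controls, with the widest errors of the group.

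Clec4n, which encodes Dectin-2, a receptor for fungal mannans, differed less. It measured 6.33, 3.72, 4.68 and 2.65 CPM in the DBA ligated libraries S41, S40, 1 and S42, against 2.44, 1.86, 2.80 and 1.25 CPM in C57 ligated libraries 1 to 4. It measured 2.52, 3.07, 2.24 and 1.95 CPM in DBA controls 1 to 4, against 1.48, 0.566, 1.40 and 0.861 CPM in C57 controls 1 to 4. The ligated strains overlapped through DBA ligated S42 and C57 ligated 3, and the controls did not overlap. The log2 fold changes, DBA over C57, were 1.05 ± 0.28 with ligation and 1.23 ± 0.38 in controls.

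C3ar1, the C3a receptor gene, was also higher in DBA libraries. It measured 21.9, 25.3, 24.9 and 19.9 CPM in the DBA ligated libraries S41, S40, 1 and S42, against 18.2, 12.0, 13.8 and 11.01 CPM in C57 ligated libraries 1 to 4. It measured 19.1, 20.3, 26.8 and 33.0 CPM in DBA controls 1 to 4, against 15.96, 10.9, 10.1 and 9.21 CPM in C57 controls 1 to 4. Both pairs of groups stood apart. The highest DBA controls, 3 and 4, are also the shallowest libraries of their group. The log2 fold changes were 0.73 ± 0.19 with ligation and 1.09 ± 0.20 in controls.

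Cd163, the haemoglobin scavenger receptor gene, ran the other way. It measured 16.9, 20.9, 22.5 and 19.6 CPM in the DBA ligated libraries S41, S40, 1 and S42, against 23.6, 31.7, 36.3 and 26.8 CPM in C57 ligated libraries 1 to 4. It measured 23.6, 20.8, 24.3 and 21.9 CPM in DBA controls 1 to 4, against 29.2, 23.0, 38.7 and 34.3 CPM in C57 controls 1 to 4. The ligated strains stood apart, and C57 control 2 fell within the range of the DBA controls. The log2 fold changes, DBA over C57, were -0.56 ± 0.15 with ligation and -0.48 ± 0.16 in controls.

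**Figure D1:**
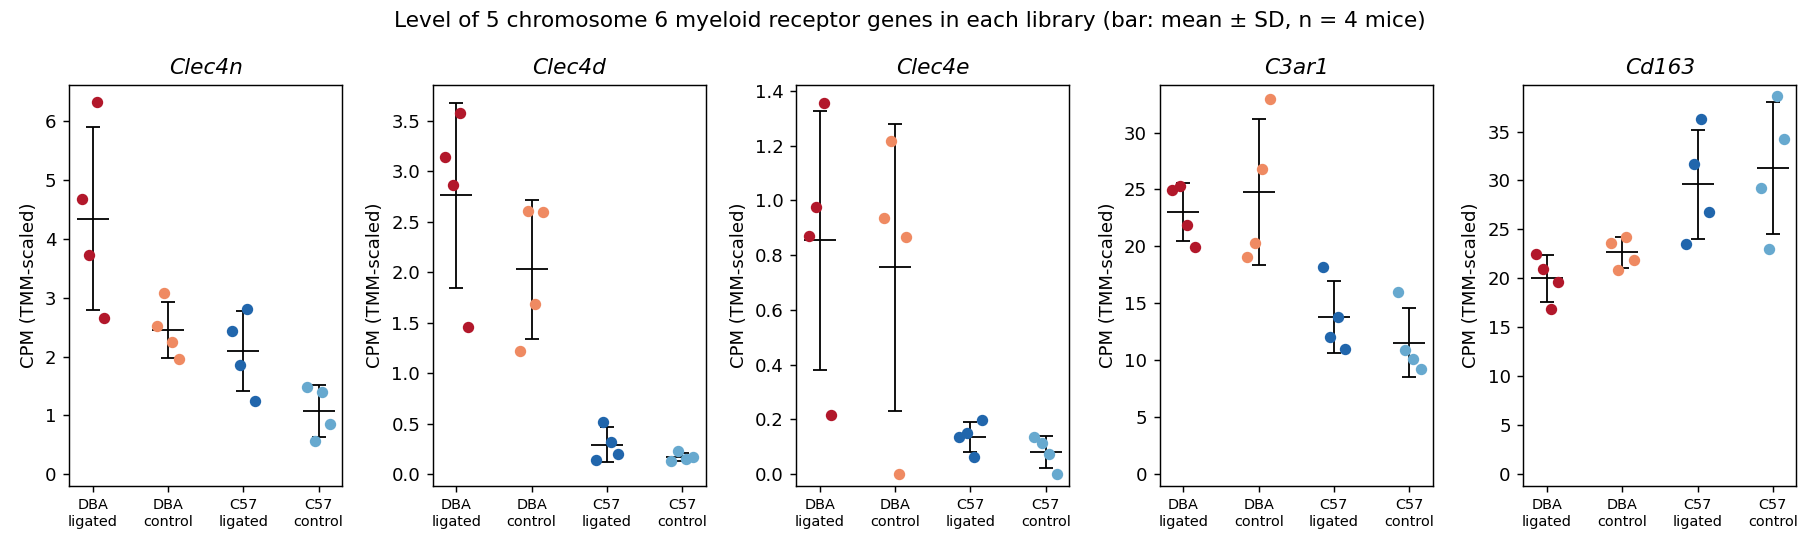
Level of each of the 5 genes, in CPM, in every library of the 4 groups; points are libraries, and bars show the mean ± SD over 4 mice. Clec4d lies between 1.22 and 3.58 CPM in the DBA libraries and between 0.134 and 0.520 CPM in the C57 libraries, while Cd163 is the 1 gene of the 5 with lower means in DBA groups.

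The strain libraries did not overlap for 4 of the 5 genes with ligation, and this was so for 30.7% of all tested genes. In the controls 3 of the 5 did not overlap, against 20.7% of all tested genes. Because the genes were chosen for this contrast, nothing is read from these counts. Reads of DBA/2J mice were aligned to a genome of C57BL/6 origin, which can lower DBA counts and whose part in the values was not tested.

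Per kilobase of exon length the order of levels differed between the strains. In DBA controls C3ar1 (5.76 ± 1.49 CPM per kb), whose SD takes in the mean of Cd163 (5.04 ± 0.350), came first, and these were followed by Clec4n (1.96 ± 0.383), Clec4d (1.52 ± 0.518) and Clec4e (0.300 ± 0.209; SD, n = 4 throughout). Clec4n and Clec4d did not differ beyond their spread there. In C57 controls the order began with Cd163 (6.97 ± 1.502 CPM per kb), then C3ar1 (2.68 ± 0.704), Clec4n (0.864 ± 0.351), Clec4d (0.127 ± 0.0305) and Clec4e (0.0319 ± 0.0235). Each step in C57 controls exceeded the SDs of both neighbours.

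The response to ligation was not used to choose the genes and was tested. Called means an adjusted p under 0.05 in the quasi-likelihood test of edgeR, adjusted over all tested genes by the Benjamini-Hochberg method. Of the 5 genes 0 were called in DBA hearts, where 24.9% of all tested genes were called, and 0 were called in C57 hearts, where 13.3% were. The ligated and control libraries overlapped for all 5 genes in both strains, while 25.3% of tested genes in DBA and 24.3% in C57 did not overlap. At an unadjusted edgeR p under 0.05 only Clec4n passed, in each strain. Of the 13504 tested genes, 5375 passed at this level in DBA and 4108 in C57. DESeq2 also called 0 of the 5, with adjusted p = 0.0502 in DBA and 0.0526 in C57 for Clec4n.

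Clec4n came nearest to a call in both strains. It averaged 4.35 ± 1.56 CPM in DBA ligated and 2.45 ± 0.477 CPM in DBA control libraries (SD, n = 4 each), a log2 fold change of 0.78 ± 0.30 (edgeR adjusted p = 0.0593). It averaged 2.09 ± 0.680 CPM in C57 ligated and 1.08 ± 0.437 CPM in C57 control libraries, a log2 fold change of 0.96 ± 0.36 (edgeR adjusted p = 0.0796). In the authors' deposited table the same gene has log2 fold changes of 0.79 in DBA and 0.96 in C57 with false discovery rates of 0.0394 and 0.0429, so the 2 processings fall on either side of 0.05. It was called in DBA when DBA ligated S42 (0.96, adjusted p = 0.0380) or DBA control 2 (0.94, adjusted p = 0.0377) was left out, and in C57 without C57 ligated 4 (1.13, adjusted p = 0.0411). The adjusted p ranged over the alternatives from 0.0326 to 0.231 in DBA and from 0.0411 to 0.205 in C57.

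The other lectin genes had wider intervals. Clec4d averaged 2.76 ± 0.916 CPM in DBA ligated and 2.03 ± 0.692 CPM in DBA control libraries, a log2 fold change of 0.47 (95% interval -0.18 to 1.13, edgeR adjusted p = 0.263). In C57 the Clec4d value was 0.68 (-0.83 to 2.18, edgeR adjusted p = 0.518). Clec4e gave 0.03 (-1.07 to 1.13, edgeR adjusted p = 0.968) in DBA and 0.83 (-1.97 to 3.62, edgeR adjusted p = 0.664) in C57. At 3 to 9 pooled counts per C57 group, a difference of several fold in Clec4e was not detectable there.

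C3ar1 and Cd163 had narrow intervals around small values. C3ar1 averaged 23.0 ± 2.58 CPM in DBA ligated and 24.8 ± 6.42 CPM in DBA control libraries (log2 fold change -0.07, interval -0.47 to 0.32, edgeR adjusted p = 0.799), and 13.8 ± 3.16 CPM in C57 ligated and 11.5 ± 3.03 CPM in C57 control libraries (0.28, -0.14 to 0.71, edgeR adjusted p = 0.358). Without the 3 libraries under 9 M counts, C3ar1 was called higher in C57 (0.47 ± 0.16, edgeR adjusted p = 0.0410). Cd163 averaged 19.98 ± 2.38 CPM in DBA ligated and 22.6 ± 1.57 CPM in DBA control libraries (log2 fold change -0.18, -0.51 to 0.15, edgeR adjusted p = 0.408). It averaged 29.6 ± 5.59 CPM in C57 ligated and 31.3 ± 6.75 CPM in C57 control libraries (-0.09, -0.41 to 0.23, edgeR adjusted p = 0.716). These Cd163 intervals leave out a change of 2-fold in either direction.

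The responses of the strains were compared by the interaction, DBA response minus C57 response. It was -0.18 ± 0.47 for Clec4n, -0.20 ± 0.78 for Clec4d, -0.79 ± 1.43 for Clec4e, -0.36 ± 0.28 for C3ar1 and -0.09 ± 0.22 for Cd163 on the log2 scale (SE, 4 libraries in each of 4 groups), with edgeR adjusted p between 0.869 and 0.960. Across all tested genes the edgeR interaction test called 0 (percent called 0), with 782 at an unadjusted p under 0.05, and DESeq2 called 16. For Clec4e the 95% interval of -3.80 to 2.21 leaves large differences possible.

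**Figure D2:**
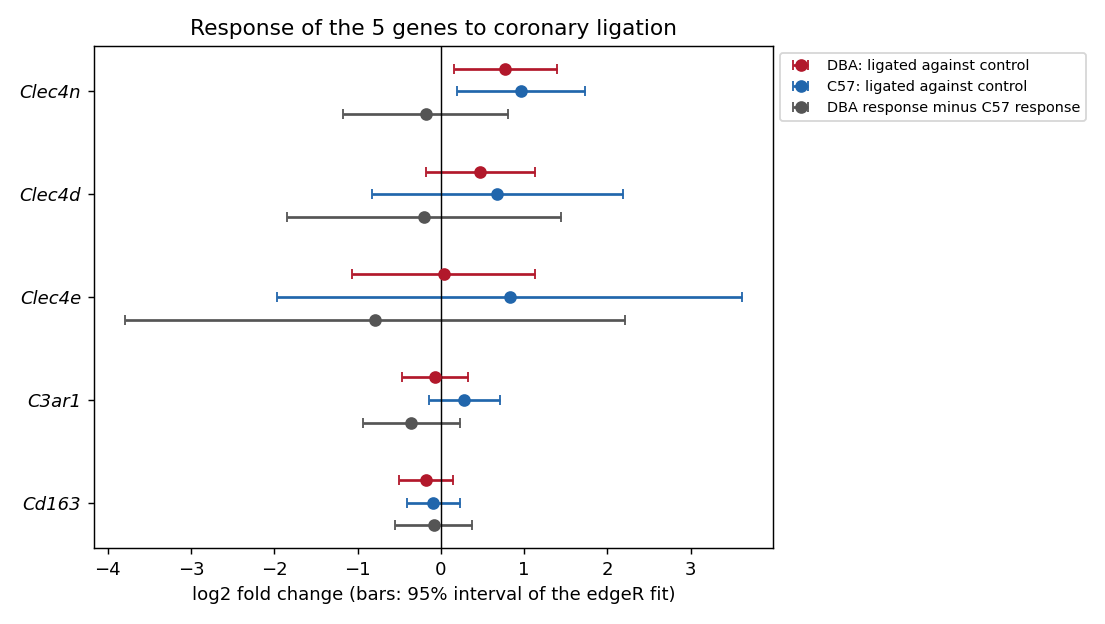
Log2 fold change of each gene, ligated over control, in DBA (red) and C57 (blue), and the difference between these responses (grey), with 95% intervals of the edgeR fit on 4 libraries per group. Clec4n lies above 0 in both strains (0.78 and 0.96), Cd163 stays within 0.51 of 0 in both, and the intervals of Clec4e in C57 reach from -1.97 to 3.62.

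Markers of macrophages moved with ligation and with strain. The 20 general macrophage markers summed to 841 ± 71.2 CPM in DBA ligated and 619 ± 59.9 CPM in DBA control libraries, and to 584 ± 94.3 CPM in C57 ligated and 401 ± 27.2 CPM in C57 control libraries (SD, n = 4 each). In bulk tissue, fewer cells of a type and less RNA per cell cannot be told apart. Of the 20 markers, 10 were called higher and 0 lower with ligation in DBA (median log2 fold change 0.45, all tested genes 0.03), among them C1qc (0.86 ± 0.21, edgeR adjusted p = 0.0100), Csf1r, the receptor for the macrophage growth factor (0.57 ± 0.14, edgeR adjusted p = 0.0106), and Spi1, which encodes PU.1 (0.62 ± 0.17, edgeR adjusted p = 0.0139). Without the 3 libraries under 9 M counts, 2 of which are DBA controls, 1 of the 20 was called in DBA, with a median of 0.36. In C57, 10 of 20 were called higher and 0 lower (median 0.58, all tested genes 0.02), and 14 of 20 without those libraries. Of all tested genes 24.9% were called in DBA and 13.3% in C57. Without those libraries, 432 of 13711 tested genes were called higher and 518 lower in DBA, and 1522 and 1307 in C57. The number of calls over all genes thus also fell in DBA and rose in C57.

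Between the strains, 9 of the 20 macrophage markers were called higher in DBA and 0 lower with ligation (median 0.34), where 19.4% of all tested genes were called, and 11 and 0 in controls (median 0.66), where 22.5% were. Lgals3, which encodes galectin-3, led both comparisons, with log2 fold changes, DBA over C57, of 2.67 ± 0.27 with ligation and 3.73 ± 0.37 in controls (edgeR adjusted p = 1.1e-06 and 4.33e-07). Cd68, a lysosomal macrophage protein, gave 1.27 ± 0.23 and 1.99 ± 0.25 (edgeR adjusted p = 0.000708 and 1.9e-05). Per 100 CPM of these summed markers, Clec4d stood on average at 0.323 CPM in DBA ligated and 0.0518 CPM in C57 ligated libraries, and at 0.323 CPM in DBA control and 0.0427 CPM in C57 control libraries. Cd163 on this scale ranged from 1.85 to 2.64 CPM in DBA ligated, 2.98 to 4.22 in DBA control, 3.72 to 6.01 in C57 ligated and 5.78 to 10.5 in C57 control libraries. The DBA and C57 libraries stood apart on this scale for Clec4d and Cd163, with ligation and in controls. They overlapped for the other 3 genes in both comparisons. The genes were chosen for the strain contrast, so nothing is read from this separation. The share of all tested genes that stand apart on this scale was not computed. In CPM the Cd163 controls overlapped, and the marker sum averaged 619 CPM in DBA and 401 CPM in C57 controls. Clec4n ranged from 0.356 to 0.693 CPM in DBA ligated and 0.258 to 0.406 CPM in C57 ligated libraries, and from 0.309 to 0.441 CPM in DBA control and 0.142 to 0.379 CPM in C57 control libraries. Clec4e ranged from 0.0291 to 0.148 CPM in DBA ligated and 0.00923 to 0.0407 CPM in C57 ligated libraries. C3ar1 averaged 2.74 CPM in DBA ligated and 2.36 CPM in C57 ligated libraries, and 4.03 CPM in DBA control and 2.86 CPM in C57 control libraries.

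Markers of other cells that can carry these receptors were also measured. The 9 recruited monocyte markers summed to 691 ± 126 CPM in DBA ligated, 438 ± 99.8 CPM in DBA control, 412 ± 131 CPM in C57 ligated and 179.6 ± 12.6 CPM in C57 control libraries, and the 5 dendritic cell markers averaged between 184 and 242 CPM in the 4 groups. The 5 tested neutrophil markers summed to 10.2 CPM in DBA ligated, 9.11 CPM in DBA control, 7.70 CPM in C57 ligated and 4.70 CPM in C57 control libraries on average. Of 11 listed markers, 5, Ly6g among them, were not analysed here, and Cxcr2 did not pass the filter on low counts. With ligation 0 of the 5 tested markers were called in either strain. Between strains 3 were called higher in DBA with ligation (Mmp9, S100a9 and Csf3r) and 2 in controls. Recruited monocyte markers were called higher in DBA controls than in C57 controls for 5 of 9 (median 1.04), led by Spp1 (7.88 ± 1.16, edgeR adjusted p = 1.45e-07) and Trem2 (3.08 ± 0.40, edgeR adjusted p = 6.24e-06), and for 3 of 9 with ligation. Without the libraries under 9 M counts the count in controls was 3 of 9. Of 5 dendritic cell markers 0 were called between strains. The resident macrophage markers beside Cd163 were called higher in DBA controls for 2 of 11 (Mrc1 and F13a1) and lower for 1, Mertk, an engulfment receptor (-0.95 ± 0.14, edgeR adjusted p = 8.29e-05), which was also lower in DBA ligated than in C57 ligated hearts (-0.85 ± 0.13, edgeR adjusted p = 9.43e-05). Cx3cr1, the fractalkine receptor gene, was the 1 of the 11 called higher in DBA ligated than in C57 ligated hearts (0.84 ± 0.25, edgeR adjusted p = 0.0225). For ligated against control, 2 of the 11 were called higher and 0 lower in each strain. Mast cell markers were called higher in DBA for 4 of 5 with ligation and 3 of 5 in controls. Among 8 cardiomyocyte markers, 6 were called lower with ligation in DBA, or 3 without the libraries under 9 M counts, and 5 in C57, and the 4 atrial muscle genes summed to 17.7 ± 6.77 CPM in DBA ligated and 68.8 ± 32.3 CPM in DBA control libraries. Of all tested genes 19.4% were called between ligated strains and 22.5% between controls. For ligated against control the shares were 24.9% in DBA and 13.3% in C57. Without the libraries under 9 M counts, 1493 of 13711 tested genes were called higher and 1164 lower between controls. For DBA ligated against control these were 432 and 518. The part of cell composition or dissection in the values of the 5 genes was not tested.

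The adaptor Fcer1g, the kinase Syk and Card9, through which the lectin receptors signal, had strain differences under 1 on the log2 scale. Fcer1g averaged 12.0 ± 3.29 CPM in DBA control and 6.47 ± 0.941 CPM in C57 control libraries (log2 fold change 0.85 ± 0.21, edgeR adjusted p = 0.00736) and did not pass between ligated strains (0.29 ± 0.19, edgeR adjusted p = 0.333). Syk averaged 46.5 ± 4.42 CPM in DBA ligated and 42.9 ± 4.08 CPM in C57 ligated libraries (0.12 ± 0.14, edgeR adjusted p = 0.649), and Card9 stayed below 1.3 CPM in every library. Of 18 tested signalling and lectin genes outside the region, 9 were called higher in DBA controls and 0 lower (median 0.65), and 4 and 0 with ligation (median 0.32), or 8 without the libraries under 9 M counts. Of all tested genes 22.5% were called between controls and 19.4% between ligated strains. Without those libraries, 2220 of 13711 tested genes were called higher and 2122 lower between ligated strains. Clec10a, a galactose-type lectin of macrophages, gave 2.40 ± 0.21 with ligation and 1.85 ± 0.24 in controls (edgeR adjusted p = 1.49e-07 and 1.78e-05). Clec7a, which encodes Dectin-1, gave 1.40 ± 0.32 and 1.65 ± 0.35 (edgeR adjusted p = 0.00437 and 0.00232).

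With ligation 5 of these 18 genes were called higher and 0 lower in each strain. Of all tested genes 24.9% were called in DBA and 13.3% in C57, so the DBA share is near that of all genes. Prkcd, a kinase between Syk and Card9, was higher by 0.69 ± 0.12 in DBA and 0.57 ± 0.12 in C57 (edgeR adjusted p = 0.00277 and 0.00640), and Plcg2 by 0.36 ± 0.12 and 0.72 ± 0.13 (edgeR adjusted p = 0.0384 and 0.00247). In DBA the count was 1 without the libraries under 9 M counts, where 432 of 13711 tested genes were called higher and 518 lower.

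For C3ar1, the complement list gives the ligand side. C3, the source of C3a, averaged 622 ± 90.0 CPM in DBA ligated and 217 ± 83.3 CPM in C57 ligated libraries, and 579 ± 64.6 CPM in DBA control and 184 ± 30.3 CPM in C57 control libraries (log2 fold changes 1.52 ± 0.20 and 1.66 ± 0.20, edgeR adjusted p = 3.61e-05 and 1.78e-05). C5ar1, the receptor for the other anaphylatoxin, was lower in DBA ligated than in C57 ligated hearts (3.89 ± 1.07 against 7.10 ± 1.78 CPM, log2 fold change -0.86 ± 0.21, edgeR adjusted p = 0.00774), with no call in controls (0.01 ± 0.25, edgeR adjusted p = 0.992). The list also holds the integrin genes Itgam, Itgax and Itgb2 and the signalling genes Gnai2, Gnai3 and Arrb2. Itgax led both strain comparisons, with 3.88 ± 0.32 with ligation and 3.72 ± 0.41 in controls (edgeR adjusted p = 6.91e-08 and 9.25e-07). Of the 20 tested genes of this list outside the region, 8 were called higher in DBA and 1 lower with ligation, and 7 and 1 in controls. With ligation, 7 were called higher and 1 lower in DBA, and 7 and 0 in C57, C4b leading in both (1.22 ± 0.20 and 1.20 ± 0.22, edgeR adjusted p = 0.00270 and 0.00345). Without the libraries under 9 M counts these were 4 and 0 in DBA. Of all tested genes 19.4% were called between ligated strains, 22.5% between controls, 24.9% with ligation in DBA and 13.3% in C57. Without those libraries, 432 of 13711 tested genes were called higher and 518 lower with ligation in DBA.

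For Cd163, the list covers haemoglobin and iron handling and known regulators. Hp, the haptoglobin whose complex with haemoglobin CD163 binds, averaged 2.71 ± 1.67 CPM in DBA ligated and 0.404 ± 0.467 CPM in C57 ligated libraries (log2 fold change 2.55 ± 0.59, edgeR adjusted p = 0.00277). These Hp values rest on 24 to 106 counts per DBA ligated library and 1 to 24 per C57 ligated library. In controls Hp averaged 1.20 ± 0.630 CPM in DBA and 0.261 ± 0.183 CPM in C57. Adam17, the protease that sheds CD163 from the cell, was higher in DBA by 0.57 ± 0.08 with ligation and 0.75 ± 0.08 in controls (edgeR adjusted p = 4.47e-05 and 3.37e-06). Maf, a transcription factor of macrophages, was higher in DBA controls (0.87 ± 0.16, edgeR adjusted p = 0.000774). Of 20 tested genes 3 were called higher in DBA and 1 lower with ligation, near the 19.4% of all tested genes, and 5 and 3 in controls, where 22.5% of all tested genes were called. With ligation 3 were called higher and 3 lower in DBA, and 2 and 3 in C57. Without the libraries under 9 M counts the counts were 7 and 1 between ligated strains and 5 and 1 between controls, and with ligation 0 and 3 in DBA and 6 and 3 in C57. Of all tested genes 24.9% were called with ligation in DBA and 13.3% in C57. Without those libraries, 2220 of 13711 tested genes were called higher and 2122 lower between ligated strains, and 1493 and 1164 between controls. With ligation these were 432 and 518 in DBA and 1522 and 1307 in C57. The ferritin heavy chain gene Fth1 fell in both strains (-0.47 ± 0.11 and -0.40 ± 0.11, edgeR adjusted p = 0.00771 and 0.0203), and Slc40a1, the iron exporter, was called lower in C57 (-0.76 ± 0.18, edgeR adjusted p = 0.0124). The ferritin light chain gene Ftl1 went the other way in DBA (1.08 ± 0.32, edgeR adjusted p = 0.0246). In C57, Ftl1 averaged 197 ± 26.0 CPM in ligated and 127 ± 36.5 CPM in control libraries (SD, n = 4 each). Lrp1 was called higher in C57 (0.85 ± 0.19, edgeR adjusted p = 0.00906).

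Among 14 tested scavenger receptors, 4 were called higher in DBA and 2 lower with ligation, and 6 and 2 in controls. Stab2, a scavenger of hyaluronan, was higher in DBA by 5.83 ± 0.48 with ligation and 4.92 ± 0.53 in controls (edgeR adjusted p = 1.11e-08 and 2.65e-07). With ligation 4 were called higher and 1 lower in each strain, Cd36 being lower and Scarb1 higher in both. Without the libraries under 9 M counts these were 1 and 0 in DBA and 7 and 1 in C57. Of all tested genes 19.4% were called between ligated strains, 22.5% between controls, 24.9% with ligation in DBA and 13.3% in C57. Without those libraries, 432 of 13711 tested genes were called higher and 518 lower with ligation in DBA, and 1522 and 1307 in C57.

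**Figure D3:**
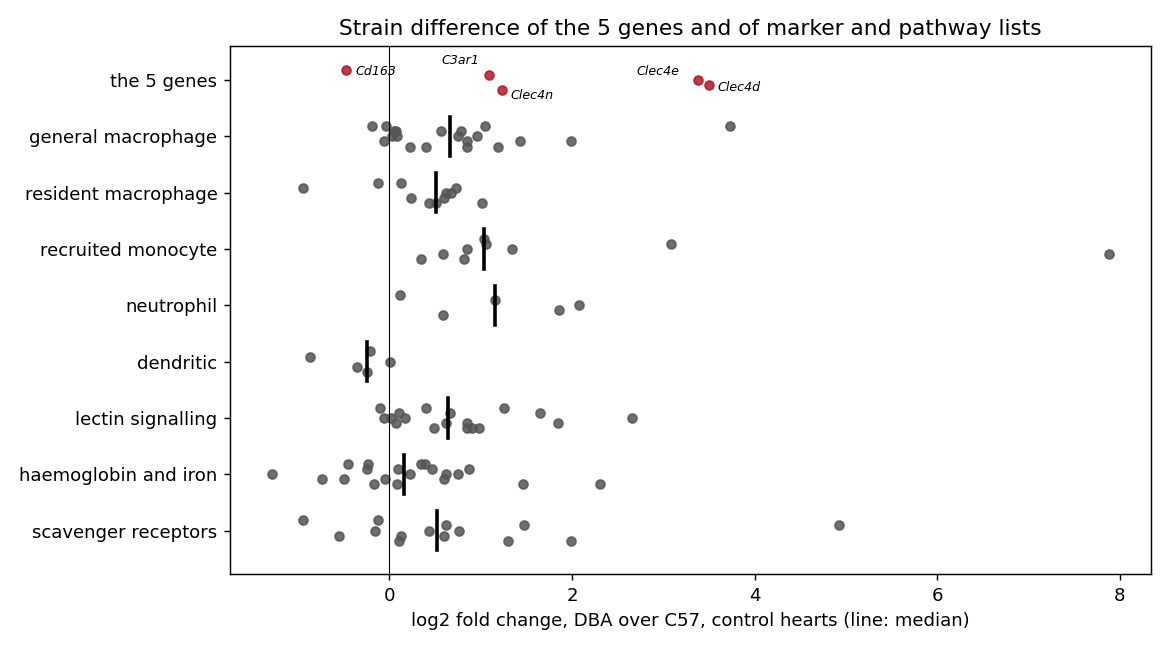
Log2 fold change, DBA over C57, in control hearts for the 5 genes (red) and for the tested genes of 8 marker and pathway lists (grey points, 1 per gene; vertical line, list median). The general macrophage list has its median at 0.66 and the recruited monocyte list at 1.04, Clec4d and Clec4e lie at 3.50 and 3.38, and Cd163 lies at -0.48.

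Strain values differed from gene to gene along the region. The region of chromosome 6 from M6pr to Cd4 held 37 genes of the table, 5 of them the receptor genes, and 31 of the rest were tested. Of these 31, 20 had values above 0, DBA over C57, with ligation (median 0.12) and 18 in controls (median 0.32). The neighbours of the lectin genes are Clec4a1, Clec4a3 and Clec4a2, which encode related receptors, some with inhibitory tails. Their log2 fold changes were 0.29, 0.57 and 0.50 with ligation and 0.62, 0.69 and 0.87 in controls. Clec4a4, Clec4b1 and Clec4b2 were not analysed here. The flanking genes Foxj2 and Necap1, next to C3ar1, gave 0.06 and 0.03 with ligation and 0.07 and -0.26 in controls, and Pex5, next to Cd163, gave -0.10 and -0.19. The largest fitted differences of the region were in the complement proteases C1rb and C1s2, chosen here after their values were seen. C1rb had 45 to 78 counts per DBA ligated library and 0 in each of the 8 C57 libraries, and C1s2 had 111 to 187 counts per DBA ligated library and at most 1 in any C57 library. Both have close relatives in the same region, and whether reads were shared with them was not tested. Eno2, the neuronal enolase gene, also chosen after its values were seen, gave 2.20 ± 0.24 with ligation and 2.27 ± 0.36 in controls without overlap, more than Clec4n, C3ar1 or Cd163.

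**Figure D4:**
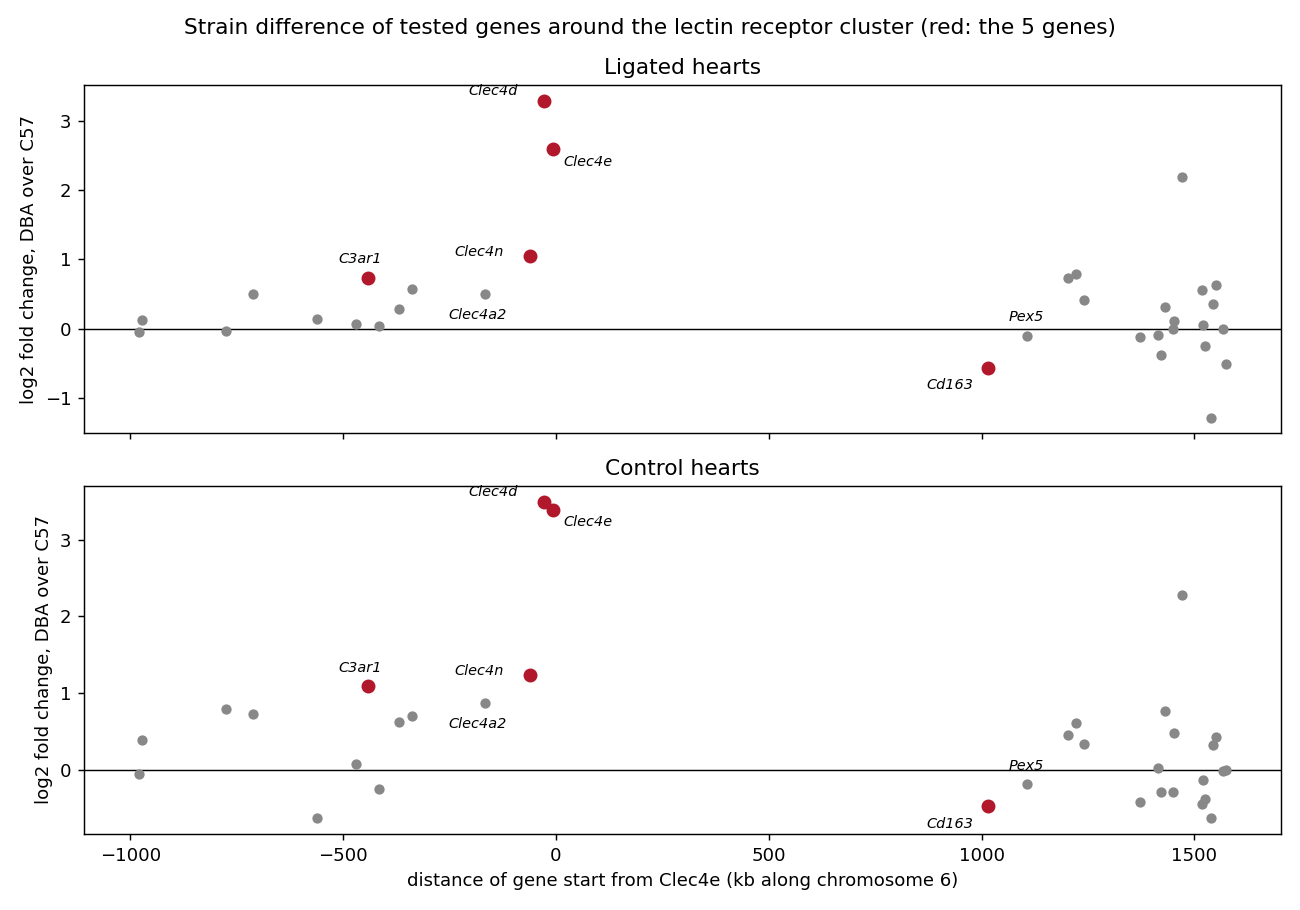
Log2 fold change, DBA over C57, against distance from Clec4e in kb, for tested genes of the region with ligation (upper) and in controls (lower). The distance runs from the highest coordinate of Clec4e to the lowest coordinate of each gene, whatever its strand. Red points are the 5 receptor genes, and C1rb and C1s2 are left out because they are at or near 0 counts in C57. Clec4d and Clec4e stand above 2.5 in both panels, and Cd163 at -0.56 and -0.48 lies below 0.

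With ligation, 6 of the 31 neighbours were called higher and 2 lower in DBA, and 4 and 2 in C57. Among all tested genes 24.9% were called in DBA and 13.3% in C57, so the DBA share of the neighbours is near that of all genes. The Clec4a genes were not among them. Clec4a1 gave 0.11 ± 0.25 in DBA and 0.44 ± 0.27 in C57, Clec4a3 gave 0.17 ± 0.20 and 0.29 ± 0.22, and Clec4a2 gave 0.05 ± 0.29 and 0.42 ± 0.33 (edgeR adjusted p from 0.280 to 0.904).

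Over 16 libraries, the correlations of the 5 genes' deviations from group means lay between -0.32 and 0.38 for the 10 pairs, and Clec4d and Clec4e had the highest. These rest on few counts for Clec4d and Clec4e. The genes whose log2 CPM followed Clec4n most closely were Rac2, a small GTPase of blood cells (r = 0.96), Myo1g (0.93) and Nckap1l (0.92). For Clec4d these were Cfi, Galnt6 and Itgax (r = 0.97 each), for Clec4e AK010878, Faim2 and Cxcl2 (r = 0.86 each), and for C3ar1 Fxyd5, Gatm and Clec7a (r = 0.96 each). For Cd163 they were Slc4a8 (0.91), Chd6 (0.91) and Zbtb16 (0.89). For deviations from group means, the closest to Clec4n were Rac2 (0.90), Crcp (0.81) and Eno1b (0.80). Those closest to Clec4d were Gm11744 (0.84), Med6 (0.81) and Il1b (0.80), and to Clec4e Tpd52 (0.86), AI504432 (0.84) and Saal1 (0.82). C3ar1 had Sema3d (0.93), Clec7a (0.93) and Slc29a3 (0.91), and Cd163 had Slc43a3 (0.91), Slc4a8 (0.88) and Mbd1 (0.88). The libraries behind these values share strain, ligation and library effects, and the correlations are a description without a test.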

How the data were processed

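The authors deposited whole-number read counts per gene for 16 libraries, not normalized, per the file headers. The same deposited table holds the authors' log2 fold changes and, as p-values, their false discovery rates. The submitters' processing notes name STAR 2.5.2b, the build mm10, featureCounts (Subread 1.5.1) and edgeR. The library kit was KAPA mRNA Hyperprep, per the labels' protocols. Annotation and strand setting were not given in the sources used here. The other 16 per-sample columns were not used. In 3 DBA ligated columns the mouse number differs from the labels; they are named S40, S41 and S42 and carry no number.

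Counts were fitted with edgeR 4.0.16 in R 4.3.3 (filter by expression, trimmed mean of M values, 4 group means over all 16 libraries, robust quasi-likelihood test, two-sided), with Benjamini-Hochberg adjustment within each contrast. CPM are scaled to the adjusted totals. SE come from the fit's curvature and moderated dispersion. No p is given for strain differences of the 5 genes or their neighbours. Lists leave out genes of the region, and T and NK markers left 0 genes to test. Alternatives were other scalings, DESeq2 1.42.0, no filter, other sample sets and leaving out each library; list counts without the shallow libraries were added after seeing the data. The fit was tested on simulated data. The labels call the samples biological replicates. The genes and lists were chosen with earlier results of these data known. Named were all 5 genes, their nearest tested neighbours, the Clec4a and Clec4b genes, up to 4 genes of smallest p per list and the 3 closest correlates. Fcer1g, Syk, Card9 and C5ar1 were named outside this rule as known partners, and C1rb, C1s2 and Eno2 after their values were seen.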

Additional observations from a re-analysis of the deposited data

How the results depend on the processing

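The strain differences of all 5 genes kept their direction under the 12 alternatives run for each, with Clec4d at 3.00 to 3.67 and Cd163 at -0.66 to -0.45 with ligation. With ligation, the number of genes called in DBA was 3360, and 1648 with only the libraries of that strain, 950 without the 3 libraries under 9 M counts, and 1318 (without DBA control 3) to 5091 (without DBA control 2) with 1 library left out, moving by over 1.5 times also without DBA ligated 1, S41 or S42. In C57 it was 1796, 2829 without the shallow libraries, and 618 (without C57 ligated 1) to 1869 with 1 left out, moving as much without C57 ligated 3, C57 control 1 or C57 control 2. Scaling by library totals moved the median of all genes to 0.19 in DBA and 0.13 in C57 and the calls to 3105 higher and 821 lower in DBA, against 1501 and 1859, and to 1680 and 426 in C57, against 978 and 818. Under that scaling Clec4n in DBA was called (0.93, edgeR adjusted p = 0.0326), C3ar1 in DBA changed sign to 0.10 and Cd163 in C57 to 0.018. Without the shallow libraries C3ar1 in DBA gave 0.22 and Clec4e -0.33, opposite in sign to the full fit, C3ar1 in C57 was called (0.47), and 1 gene had an interaction, against 16 by DESeq2 and 0 in the full fit. With 1 library left out, ligation values in DBA ranged from 0.55 to 0.96 for Clec4n, -0.28 to 0.43 for Clec4e and -0.18 to 0.080 for C3ar1, and in C57 from 0.77 to 1.16 for Clec4n and -0.21 to 0.031 for Cd163. Interactions ranged from -0.42 to 0.0022 for Clec4n, -0.49 to 0.18 for Clec4d and -0.21 to 0.03 for Cd163. The causes were not tested.

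Replicate numbers could be paired in C57 only; no paired analysis was possible in DBA because 3 ligated columns carry no number. Correlations of same-numbered C57 libraries, taken on deviations from group means, ran from -0.07 to 0.01. With 4 libraries per group, such values cannot show whether same-numbered samples share more than a number. With the replicate block, 1292 genes were called in C57, Clec4n gave 0.95 (edgeR adjusted p = 0.0807), and 0 genes had an interaction.

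Counts limit Clec4d and Clec4e in C57 (at most 7 and 3 per library), and the 3 libraries under 9 M counts limit the controls.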
